A study of Mus musculus with 12 samples.

Results

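EGFR+ cells sorted as PDGFRA+ were compared with EGFR+ cells sorted as PDGFRA- from the same mouse GBMs. The libraries were chosen by their sample labels, 3 PDGFRA+ and 3 PDGFRA- of the 12 libraries in the series, and the pairs came from 3 tumors named T3, T4 and T5. All 18180 genes of the deposited table were tested. The mice were adults of a mixed background (C57Bl/6J, 129S4, FVBN/J and Balb/cJ in the labels) with constitutive loss of *Cdkn2a* and conditional human EGFR. Stereotactic injection of a Cre lentivirus into the brain started the tumors, which were taken at end stage. Both sorted populations carried these alleles and both were gated on EGFR with an antibody, so they differed by design only in surface PDGFR staining. The study's results describe the cells as CD45-, while its account of this sort names only the EGFR, PDGFR and Galectin-1 antibodies.

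PDGFRA is the receptor for PDGF-A and other PDGF ligands, and in the brain it marks oligodendrocyte progenitor cells. Those cells divide, express the transcription factors OLIG1, OLIG2 and SOX10, and lose PDGFRA as they mature into oligodendrocytes that make myelin. The same receptor is expressed in fibroblasts, and in gliomas it is a mark of cells with a progenitor-like program. The comparison asks which transcripts go with surface PDGFRA among EGFR+ tumor cells.

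Values are log2 CPM, with CPM a gene's reads scaled to a common library size, and a difference between populations is a log2 fold change from limma with the tumor as a block. Total reads, recovered from the lowest value of each library, were 10768492 to 18522549 in the PDGFRA+ and 9851175 to 16516049 in the PDGFRA- libraries. The libraries of a population came from separate tumors. In bulk libraries, fewer cells of a type and less RNA per cell cannot be told apart.

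*Pdgfra*, the transcript of the protein the cells were sorted on, was at a log2 CPM of 10.81 in T3, 10.13 in T4 and 9.95 in T5 in PDGFRA+ cells. In PDGFRA- cells it was at 10.11, 8.62 and 7.36. It was higher in PDGFRA+ cells of every tumor, but the PDGFRA- library of T3 lay above the PDGFRA+ library of T5, so the groups overlapped. Within tumors it differed by 0.70 (T3), 1.51 (T4) and 2.59 (T5). Fitted over the tumors, the log2 fold change was 1.60 (standard error 0.41) with an adjusted p of 0.249 (limma). Without the PDGFRA- library of T5 it was 1.09. The sort used this protein, so the direction of *Pdgfra* is a check of the labels rather than a finding.

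Of the PDGF ligands, *Pdgfa*, which binds PDGFRA, was at 4.49, 5.38 and 5.38 in PDGFRA+ cells and at 4.81, 6.32 and 5.34 in PDGFRA- cells of T3, T4 and T5. Its log2 fold change of −0.40 had an unadjusted p of 0.0479 and an adjusted p of 0.423 (limma), and T5 went the other way by a small margin. *Pdgfb* (0.27), *Pdgfc* (−0.11), *Pdgfd* (0.45) and the mural cell receptor *Pdgfrb* (−0.23) had unadjusted p-values above the threshold.

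limma called 0 of the 18180 genes (0%) at an adjusted p under 0.05, and the smallest adjusted p was 0.181. At an unadjusted p under 0.05 there were 2137 genes (11.8%), of which 1094 (6.02%) were higher and 1043 (5.74%) lower in PDGFRA+ cells. These shares are the background against which the gene lists are read below. The count fell to 640 without the tumor block, to 924 without T5 and to 1136 without the PDGFRA- library of T5 alone. Every other limma setting tried also gave 0 genes at an adjusted p under 0.05.

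The tumors differed from each other in what separated the populations. The difference PDGFRA+ minus PDGFRA- had an SD across genes of 0.533 in T3, 0.751 in T4 and 0.804 in T5, and 1206, 2418 and 3415 genes differed by more than 1 on the log2 scale. Across the 18180 genes the differences of T3 and T5 had a Pearson correlation of 0.427. Those of T3 and T4 had a correlation of −0.086 and those of T4 and T5 one of 0.007. Genes are not independent replicates, and each correlation shares depth and normalization within a library. Of all genes, 30.3% had the same direction in the 3 tumors, with 2883 (15.9%) higher and 2624 (14.4%) lower in PDGFRA+ cells of each.

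**Figure D1:**
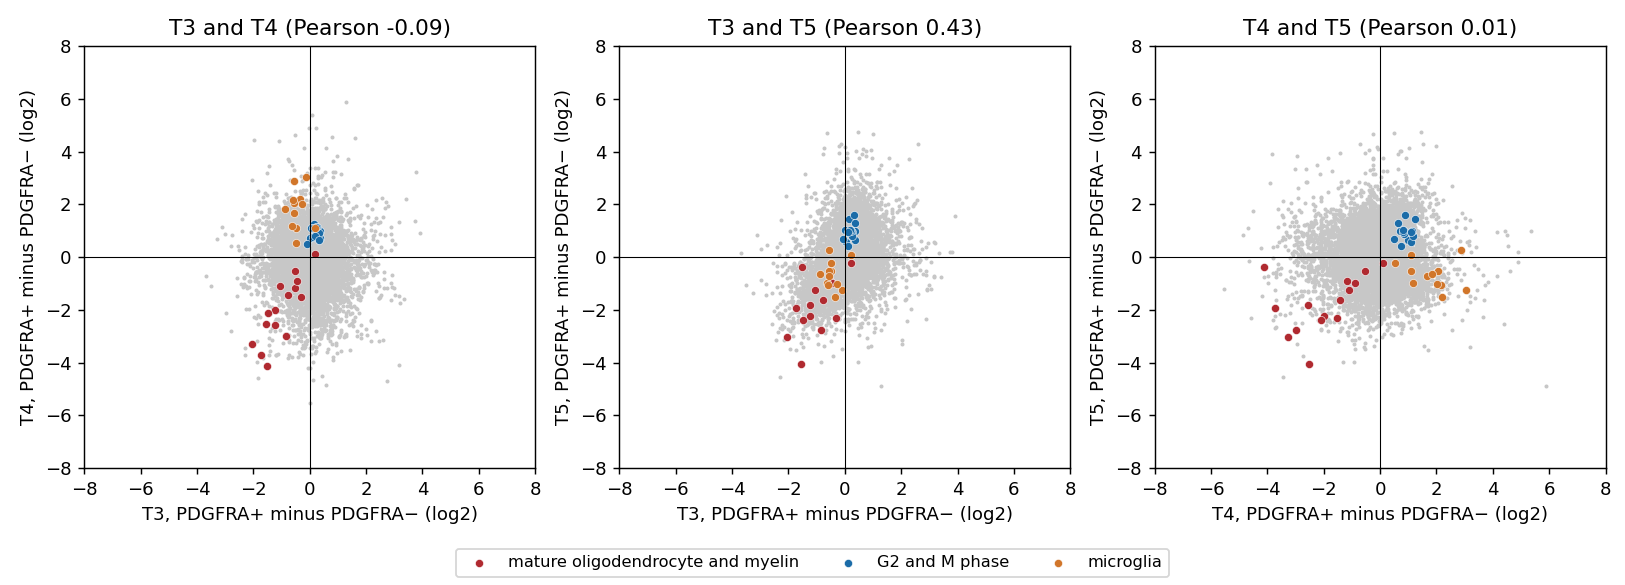
Difference PDGFRA+ minus PDGFRA- (log2 CPM) of 18180 genes in one tumor against the same difference in another, with genes of 3 lists colored and the Pearson correlation across genes above each panel. Myelin genes lie mostly below 0 on both axes and G2 and M phase genes above 0, while microglia genes lie above 0 in T4 and mostly below 0 in T3 and T5.

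Genes of mature oligodendrocytes and myelin were lower in PDGFRA+ cells. Of 15 listed genes, 14 were lower in all 3 tumors and 12 had every PDGFRA+ library below every PDGFRA- library, against 14.4% and 3.43% of all genes. The list's median log2 fold change was −1.82, beside −0.02 over all genes, and 13 members had an unadjusted p under 0.05. Tumor medians were −1.04 (T3), −2.0 (T4) and −1.80 (T5). No member passed the adjusted threshold. The number with an unadjusted p under 0.05 stayed between 10 and 14 when a tumor, the PDGFRA- library of T5, the block or the GAL1 libraries were left out.

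*Mag*, a glycoprotein of the inner myelin layer, was at a log2 CPM of 4.12, 3.57 and 4.11 in PDGFRA+ cells of T3, T4 and T5 and at 5.34, 5.57 and 6.34 in PDGFRA- cells. Every PDGFRA+ library was below every PDGFRA- library, and the fitted difference was −1.82 (standard error 0.31, adjusted p = 0.202, limma). *Enpp6*, a choline phosphodiesterase that is high in newly forming oligodendrocytes, was at 3.81, 3.02 and 3.23 against 5.28, 5.13 and 5.61. Its log2 fold change of −1.99 had the smallest unadjusted p of the list, 7.16e-05 (adjusted p = 0.202, limma). *Mbp*, myelin basic protein, was at 6.99, 6.67 and 7.01 against 8.04, 7.79 and 8.26. In these 3 genes the PDGFRA- libraries of T3, T4 and T5 were all high, and the gap between the groups was wider than the spread within either.

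*Myrf*, the transcription factor that switches on myelin genes, had a log2 fold change of −1.27, *Cnp*, a myelin phosphodiesterase, −0.85 and *Mobp*, a structural myelin protein, −2.20. The largest differences of the list, *Mog* (−2.78), *Ermn* (−2.70) and *Opalin* (−2.46), were in genes of low level, with log2 CPM between −1.69 and 0.35 in PDGFRA+ libraries. *Bcas1*, expressed in oligodendrocytes that have just begun to myelinate, was lower by less, with a log2 fold change of −0.52, and its groups overlapped. *Ugt8a*, which makes the myelin lipid galactocerebroside, was at 0.03 (unadjusted p = 0.945, limma) and was the only member of the 15 that was not lower in the fit. *Gpr17*, a receptor of committed progenitors between the dividing and the myelinating stage, was at 7.87, 7.54 and 7.64 in PDGFRA+ cells against 8.09, 8.15 and 8.16. Its groups did not overlap, with a log2 fold change of −0.45 and an unadjusted p of 0.26 (limma).

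The summed level of the 15 myelin genes was 719 to 992 CPM in the PDGFRA+ and 1634 to 1809 CPM in the PDGFRA- libraries. No member was at 0 reads in any library. Whether the myelin transcripts came from EGFR+ tumor cells or from other oligodendrocytes in the gate was not tested.

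**Figure D2:**
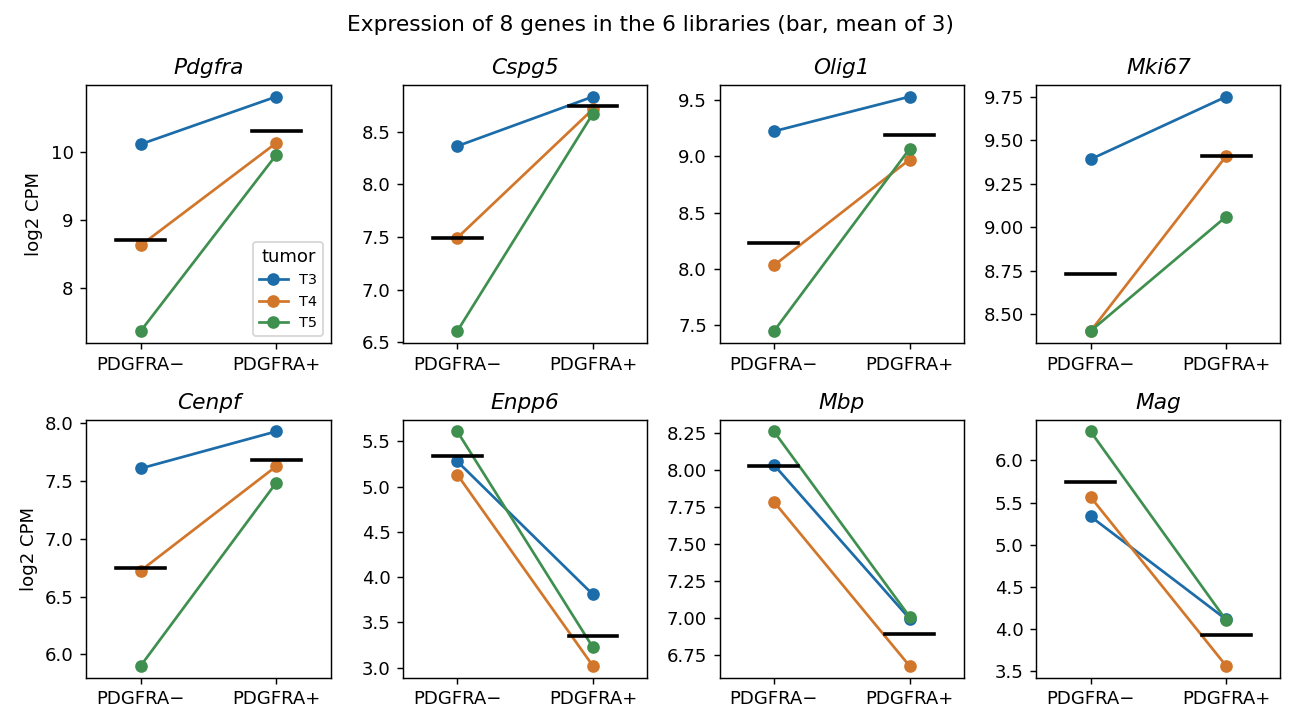
Log2 CPM of 8 genes in the PDGFRA- and PDGFRA+ libraries, with lines joining the libraries of one tumor and black bars at the mean of 3. *Pdgfra*, *Cspg5*, *Olig1*, *Mki67* and *Cenpf* are higher in PDGFRA+ cells of each tumor, and *Enpp6*, *Mbp* and *Mag* are lower with no overlap of the groups.

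Genes of oligodendrocyte progenitors were mostly higher in PDGFRA+ cells, by less than the myelin genes were lower. The list leaves out *Pdgfra* and had 20 members, of which 17 were higher in the fit. Higher in all 3 tumors were 13, against 15.9% of all genes. The 3 members lower in the fit, among them *Gpr17* and *Sox8*, were lower in all 3 tumors, against 14.4% of all genes. The list's median log2 fold change was 0.45, and 6 members had an unadjusted p under 0.05, all higher, against 6.02% of all genes. Tumor medians were 0.33 (T3), 0.17 (T4) and 0.86 (T5). The 6 became 1 without T5 or without its PDGFRA- library, and 2 without the block. That library also stood apart in markers of other cells. Its 12 pan-leukocyte genes summed to 3356 CPM, against 737 and 1243 CPM in the other PDGFRA- and 701 to 1667 CPM in the PDGFRA+ libraries, with none at 0 reads, and mouse *Egfr* was at 8.16, against 9.93 to 10.50 in the other 5. The part of these in the progenitor values was not tested.

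*Cspg5*, a chondroitin sulfate proteoglycan of progenitors, was at 8.83, 8.71 and 8.67 in PDGFRA+ cells of T3, T4 and T5 and at 8.36, 7.49 and 6.60 in PDGFRA- cells. The PDGFRA+ libraries were nearly equal and the PDGFRA- libraries were spread widely, with T5 lowest. The difference of 1.25 (standard error 0.36, adjusted p = 0.274, limma) came with no overlap of the groups, as in 3 members of the list and 3.51% of all genes. *Olig1*, a lineage transcription factor, was at 9.53, 8.97 and 9.06 against 9.22, 8.03 and 7.45, so that the PDGFRA- library of T3 reached the PDGFRA+ range. *C1ql1*, a secreted C1q-like protein, had a log2 fold change of 1.04, *Pcdh15*, a cadherin, 0.88, *Ptprz1*, a receptor phosphatase, 0.85 and *Lhfpl3*, a membrane protein, 0.78. For *Olig2*, *Sox10* and *Cspg4*, the defining transcription factors and the NG2 proteoglycan, the values were 0.47, 0.21 and 0.79, with unadjusted p-values of 0.157, 0.585 and 0.0949 (limma). These were present in both populations. *Sox10* was at 7.95, 7.58 and 7.82 in PDGFRA+ and 7.88, 8.09 and 6.74 in PDGFRA- cells.

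The genes the study's text gives under oligodendrocyte differentiation were chosen from a comparison that used the same PDGFRA+ libraries, so they are not independent of these samples. Of the 9 used here, 7 were higher and 2 lower in all 3 tumors, against 15.9% and 14.4% of all genes. Their median was 0.68, and it was 0.38 without T5 and 0.37 without the PDGFRA- library of T5. *Nkx6-2*, a homeodomain factor of maturing oligodendrocytes, was lower, at 0.05, 0.26 and 0.49 in PDGFRA+ and 0.65, 2.02 and 2.96 in PDGFRA- cells. Its log2 fold change was −1.61 (unadjusted p = 0.0252, adjusted p = 0.366, limma), and the groups did not overlap. *Sox8*, a SOXE factor of the lineage, was the other lower gene, with a log2 fold change of −0.16 (unadjusted p = 0.641, limma). *Nlgn3*, a postsynaptic adhesion protein that glioma cells also shed and respond to, had a log2 fold change of 0.74, *Slc8a3*, a sodium-calcium exchanger, 0.92 and *Ntrk2*, the BDNF receptor, 0.68.

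Synaptic adhesion, scaffold and glutamate receptor genes, which progenitors and glioma cells use at contacts with neurons, had a median of 0.48 over 26 genes. In the fit 23 were higher and 8 had an unadjusted p under 0.05, all higher, against 6.02% of all genes. Among them were the presynaptic organizer *Nrxn2* (0.87), the NMDA receptor subunit *Grin1* (0.88), the AMPA receptor subunit *Gria3* (0.77) and *Lrrtm3* (0.78), a neurexin ligand. The count of 8 became 1 without T5 and 0 without its PDGFRA- library or without the block. The high leukocyte sum and low *Egfr* of that library, given above, go with these values too, and their part was not tested. Tumor medians were 0.26 (T3), 0.20 (T4) and 1.03 (T5).

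Genes of the G2 and M phases were higher in PDGFRA+ cells. All 16 listed genes had an unadjusted p under 0.05 and were higher, against 6.02% of all genes, and 15 were higher in every tumor. The median log2 fold change was 0.69, with 0.21 in T3, 0.84 in T4 and 0.97 in T5. The groups overlapped in each of the 16 genes. The count of 16 was 11 without T4 or without T5 and 14 without the PDGFRA- library of T5. It was 2 in the fit without the tumor block, where all 16 were still higher.

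*Mki67*, the proliferation antigen Ki-67, was at 9.75, 9.41 and 9.06 in PDGFRA+ cells of T3, T4 and T5 and at 9.39, 8.40 and 8.40 in PDGFRA- cells. The fit gave 0.67 on the log2 scale (standard error 0.13, adjusted p = 0.21, limma). *Cenpf*, a kinetochore protein, was at 7.93, 7.62 and 7.48 against 7.61, 6.72 and 5.90. *Top2a*, the topoisomerase of dividing cells, had a log2 fold change of 0.70 and *Ccnb1*, cyclin B1, one of 0.93. In each of these genes the PDGFRA- library of T3 was within the range of the PDGFRA+ libraries.

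S phase genes were higher by less, with a median of 0.32 over 16 genes, of which 15 were higher in the fit. At an unadjusted p under 0.05, 7 were higher, against 6.02% of all genes. *Rrm2* (0.67) and *Rrm1* (0.47), subunits of ribonucleotide reductase, and *Uhrf1* (0.52), which keeps DNA methylation at replication, had the smallest p-values. The replicative helicase genes *Mcm4* and *Mcm7* were at 0.15 and 0.17. The count of 7 was 0 without the block, 1 without T4, 4 without T5 and 3 with the 6 PDGFRA libraries alone. *Rad54l*, a recombination repair gene outside the list, had the smallest p among genes higher in PDGFRA+ cells. It was at 4.38, 4.03 and 3.94 against 3.69, 3.04 and 2.90, a difference of 0.91 (standard error 0.14; adjusted p = 0.202 in limma) with no overlap.

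Promoters of 2 of the lists, G2 and M phase and myelin genes, were read from RefSeq windows on GRCm38.p6. The windows are the 250 bases before the start that the table gives, printed on the gene's strand. Other annotated starts of a gene can lie within them. The deposited values were made on mm39, so these coordinates are those of the RefSeq table alone. The first 2 windows come from G2 and M phase genes and the third from a myelin gene, and capitals mark the motifs searched on both strands, which did not overlap each other.
Mki67 (chr7:135716380-135716629, minus strand): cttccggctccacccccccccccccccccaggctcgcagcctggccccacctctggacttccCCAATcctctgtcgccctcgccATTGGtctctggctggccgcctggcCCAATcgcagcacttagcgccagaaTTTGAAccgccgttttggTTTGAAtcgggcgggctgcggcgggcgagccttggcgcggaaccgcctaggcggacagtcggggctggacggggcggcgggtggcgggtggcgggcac
Top2a (chr11:99024190-99024439, minus strand): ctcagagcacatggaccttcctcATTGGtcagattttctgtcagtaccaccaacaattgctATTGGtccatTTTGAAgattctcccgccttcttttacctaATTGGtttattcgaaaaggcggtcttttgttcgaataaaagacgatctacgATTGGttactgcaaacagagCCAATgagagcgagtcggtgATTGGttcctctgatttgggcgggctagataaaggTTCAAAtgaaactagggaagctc
Mag (chr7:30914864-30915113, minus strand): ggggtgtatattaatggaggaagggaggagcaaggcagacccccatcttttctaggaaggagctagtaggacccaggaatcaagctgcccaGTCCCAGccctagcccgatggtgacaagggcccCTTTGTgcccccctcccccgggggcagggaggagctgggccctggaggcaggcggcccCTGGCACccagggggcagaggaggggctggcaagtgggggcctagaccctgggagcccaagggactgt

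In the *Mki67* and *Top2a* windows the capitals are TTTGAA, the cell cycle homology region, and CCAAT, the box bound by NF-Y, or their reverse complements. *Mki67* held 2 of the first and 3 of the second, and *Top2a* 2 and 6. Of the 16 G2 and M phase genes 13 had a window, 6 of them with TTTGAA against 11.3% of 12222 genes and 11 with CCAAT against 36.2%. In the *Mag* window the capitals are CTGGNAC and ACAAAG, a SOX-type motif. CTGGNAC, with N any base, covers the letters bound by MYRF but can also match other letters. Of the 15 myelin genes 11 had a window, 3 of them with CTGGNAC against 15.5% of genes and 4 with ACAAAG against 12.2%. The window of *Enpp6*, the myelin gene with the smallest p, held 0 matches to either motif and is not printed. A match is a description of the letters, and binding was not measured.

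Mouse *Egfr* was at 10.50, 10.12 and 9.93 in PDGFRA+ cells and at 10.18, 10.02 and 8.16 in PDGFRA- cells of T3, T4 and T5. The PDGFRA- library of T5 was low and the other 5 lay close together, and the log2 fold change was 0.73 (unadjusted p = 0.0483, adjusted p = 0.423, limma). Reads of the human transgene were aligned to the mouse genome, and how many were counted at *Egfr* was not tested. *Cdkn2a* was at 3.56, 3.73 and 3.94 against 4.03, 3.83 and 3.06, a log2 fold change of 0.11. Values are per gene, so they do not show whether the deleted exons were read.

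Among EGFR family members and ligands, *Erbb4*, a neuregulin receptor, did not overlap between the groups, with a log2 fold change of 0.78 (unadjusted p = 0.0368, adjusted p = 0.397, limma). *Tgfa*, an EGFR ligand, was at 7.85, 7.44 and 7.43 in PDGFRA+ and 7.49, 7.21 and 6.17 in PDGFRA- cells, a log2 fold change of 0.62. The study's methods name a lentivirus that carries TGFa with Cre among the viruses produced. Whether reads of such a vector were counted at *Tgfa* was not tested. One library stood apart. In the PDGFRA- library of T4, *Erbb3* was at 8.76, *Erbb2* at 5.25 and the ligand *Hbegf* at 6.69, while their highest values in the other 5 libraries were 6.16, 2.54 and 5.88. Their log2 fold changes of −0.49, −0.48 and −0.10 were 0.66, 0.64 and 0.66 without T4. *Ereg* (1.55), *Btc* (0.54), *Areg* (0.31) and *Egf* (−0.34), also EGFR ligands, had unadjusted p-values above the threshold, and *Btc* had 3 reads or fewer, the floor, in 2 libraries.

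Of 12 MAPK feedback genes, 3 were higher and 1 lower at an unadjusted p under 0.05, against 6.02% and 5.74% of all genes. *Etv4* (0.80) and *Etv5* (0.31), transcription factors that follow ERK activity, and the inhibitor *Spry1* (0.59) were higher, and *Dusp6* (−0.53), a phosphatase of ERK, was lower with no overlap of the groups. The direction was thus mixed within the list.

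Heat shock and unfolded protein response genes were lower in PDGFRA+ cells, with a median of −0.50 over 12 genes. All 12 were lower in the fit, 10 in every tumor, and 9 had an unadjusted p under 0.05 against 5.74% of all genes. *Hspa1b*, an inducible HSP70, was at 8.45, 9.49 and 11.09 in PDGFRA+ and 9.46, 10.36 and 12.63 in PDGFRA- cells, a log2 fold change of −1.14 (adjusted p = 0.254, limma). Its near-identical copy *Hspa1a* shares reads with it and was counted in fractions. Both populations of T5 were high, and the summed level of the list ran from 2468 to 8013 CPM in PDGFRA+ and from 3693 to 18740 CPM in PDGFRA- libraries. *Hsph1*, a cochaperone, had a log2 fold change of −0.55 and *Trib3*, a target of the unfolded protein response, one of −0.75. The count of 9 was 1 without the block and 5 without T3.

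Leukocyte genes did not have one direction across the tumors. The summed level of 12 pan-leukocyte genes was 701, 1622 and 1667 CPM in PDGFRA+ cells of T3, T4 and T5 and 1243, 737 and 3356 CPM in PDGFRA- cells. All 12 were lower in PDGFRA+ cells of T3 and T5 and higher in those of T4, with tumor medians of −0.89, −1.14 and 1.19. The median log2 fold change was −0.25, with 0 members at an unadjusted p under 0.05. It was −1.0 without T4, 0.10 without T3 and 0.18 without T5. *Ptprc*, which encodes CD45, was at 6.11, 7.33 and 7.31 against 7.08, 6.65 and 8.66. No pan-leukocyte marker was at 0 reads in any library.

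Microglia genes split the same way, at 660, 1897 and 1435 CPM in PDGFRA+ against 936, 557 and 2268 CPM in PDGFRA- cells, and MHC class II genes had tumor medians of −0.99, 1.28 and −0.92. *Sall1*, a transcription factor of microglia that neural progenitors also express, was the only microglia-list gene higher in every tumor (log2 fold change 0.45). Genes of the neutrophil chemotaxis list in the study's text had medians of −0.79 in T3, 0.80 in T4 and −1.34 in T5. They were chosen as higher in GAL1+ than in PDGFRA+ cells, with the same PDGFRA+ libraries, so they are not independent of these samples. *Ccl24* (−1.59), *Cxcl2* (−1.23), *Cxcl3* (−1.49) and *Cxcr2* (−0.87), chemokines and a chemokine receptor, were lower in each tumor, and the other 8 were not. Of all genes 14.4% were lower in each tumor. The same 4 were lower at an unadjusted p under 0.05, against 5.74% of all genes. *Ccl8* (0.51) was higher in each tumor, and *Ccl6* (0.19) and *Ccl12* (0.02) were also above 0 in the fit. The list's median of −0.44 was −0.02 without T5 and −1.06 without T4.

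A smaller set of leukocyte genes was lower in all 3 tumors. The 12 macrophage and monocyte genes as a whole were not: in T4 their median difference was 0.29 and 8 were higher in PDGFRA+ cells, while the medians of T3 and T5 were −1.02 and −1.46. The other 4 were lower in every tumor, among them the monocyte genes *Plac8*, *Ccr2* and *Ly6c2*, with log2 fold changes of −2.11, −1.70 and −2.05 and no overlap of the groups. *Ccr2*, the receptor that brings monocytes out of the marrow, was at 2.56, 3.05 and 2.65 in PDGFRA+ and 3.85, 3.79 and 5.71 in PDGFRA- cells. Of 12 macrophage and monocyte genes 4 were lower at an unadjusted p under 0.05, against 5.74% of all genes. Without T4 this count was 10 and without T5 it was 2. Of 9 neutrophil genes measured of 12 listed, 5 were lower at that threshold, among them *S100a9* (−1.28), with 0 without the block and 3 without T3. Their level was low. The list summed to 47.9, 117 and 110 CPM in PDGFRA+ cells of T3, T4 and T5. In PDGFRA- cells the sums were 86.1, 92.9 and 202 CPM, so T4 went the other way. In each T4 library 1 member was at 0 reads.

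T and NK cell genes were at low levels, summing to 26.8 to 31.6 CPM in PDGFRA+ and 38.8 to 49.6 CPM in PDGFRA- libraries, so all PDGFRA+ libraries were below all PDGFRA- libraries. Of 10 measured genes 7 were lower in every tumor, against 14.4% of all genes, and 2 had an unadjusted p under 0.05, against 5.74%. These 2 were *Cd4*, at 2.61, 3.12 and 2.80 against 3.66, 4.05 and 3.96, and *Cd2* (−1.34). *Flt3*, a receptor of dendritic cells and their precursors, was at 1.55, 1.55 and 1.41 against 3.41, 2.93 and 4.08, and *Ccr7*, a homing receptor of dendritic and T cells, had a log2 fold change of −1.10. Of 10 listed B cell and dendritic cell genes only 4 were measured. The other 2, *Xcr1* (−0.27) and *Zbtb46* (−0.02), were higher in PDGFRA+ cells of T4, where the list's median was 0.08. No gene of the T and NK cell or of the B and dendritic cell list was at 0 reads in a library, and their part in the differences above was not tested.

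**Figure D3:**
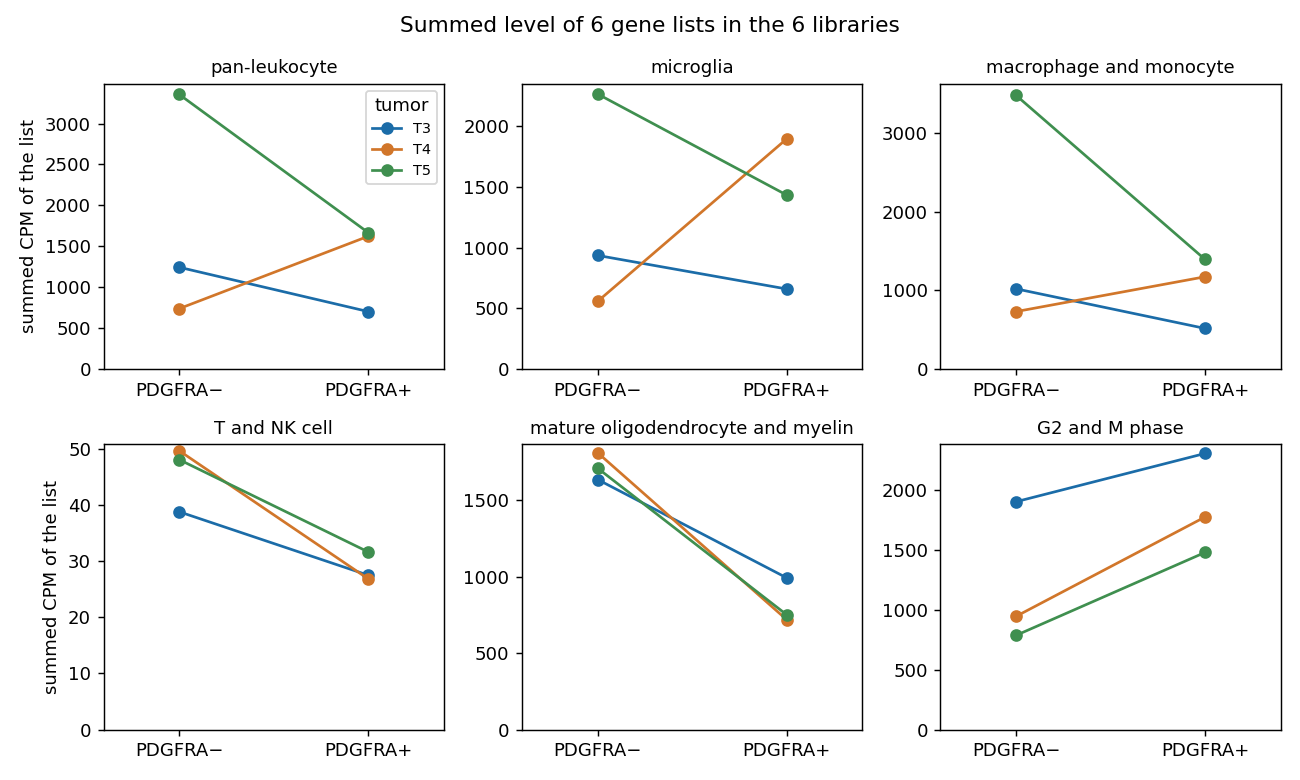
Summed CPM of 6 gene lists in the PDGFRA- and PDGFRA+ libraries, with lines joining the libraries of one tumor and axes that start at 0. The leukocyte, microglia and macrophage sums are higher in PDGFRA+ cells of T4 and lower in those of T3 and T5, while the T and NK cell and myelin sums are lower and the G2 and M phase sums higher in PDGFRA+ cells of every tumor.

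**Figure D4:**
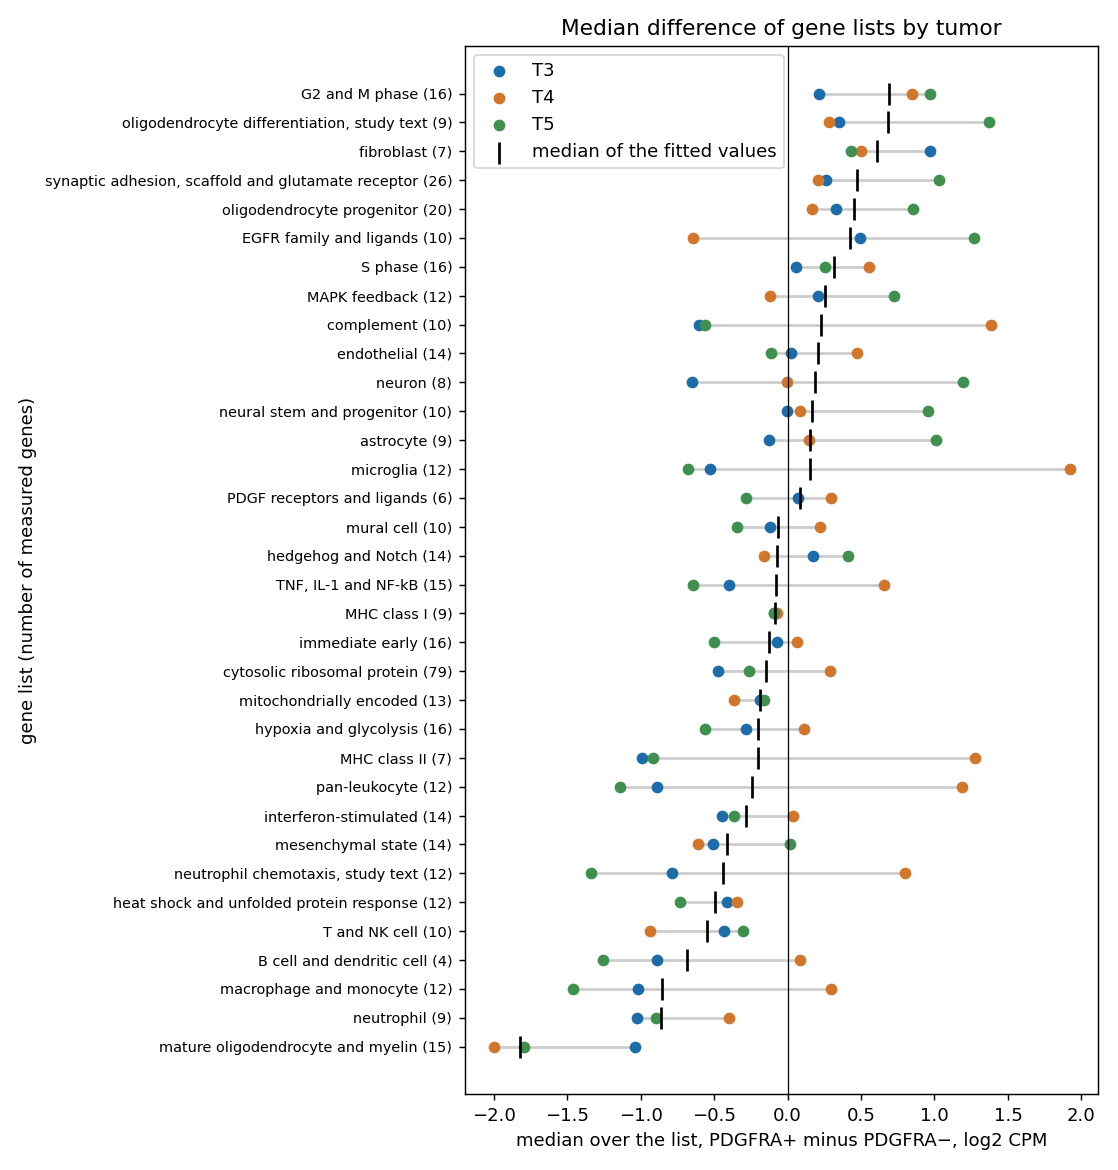
Median over each of 34 gene lists of the difference PDGFRA+ minus PDGFRA- (log2 CPM), one point per tumor, with a black bar at the median of the fitted log2 fold changes and the number of measured genes in brackets. The myelin list lies lowest, from −2.0 to −1.04, the G2 and M phase list is above 0 in each tumor, and the microglia and pan-leukocyte lists have T4 on the other side of 0 from T3 and T5.

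The genes with the smallest p-values overall were lower in PDGFRA+ cells, apart from *Rad54l*. *Kif19a*, a kinesin that sets the length of cilia, was at 3.20, 2.95 and 2.71 in PDGFRA+ and 4.30, 4.78 and 4.85 in PDGFRA- cells. Its log2 fold change of −1.69 had an unadjusted p of 1.37e-05 and an adjusted p of 0.181 (limma). *Ahr*, the aryl hydrocarbon receptor, was at 3.90, 5.05 and 5.36 against 5.19, 6.61 and 6.93. Its groups overlapped, yet its differences were close to each other in the 3 tumors, and the fitted value was −1.47 (standard error 0.19; limma's adjusted p = 0.181). *Itgb7* (−1.41), an integrin of lymphocytes, and *Slfn1* (−2.19), a schlafen family gene, did not overlap.

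Among genes with an unadjusted p under 0.05, one direction in all tumors and a mean log2 CPM of at least 2, the 12 with the highest log2 fold change ran from 1.33 to 1.60. Besides *Pdgfra* they held genes of neurons and glia: the glutamate transporter *Slc1a2* (1.37), the neuronal pentraxin receptor *Nptxr* (1.54), the acid-sensing channel subunit *Asic4* (1.44), the nicotinic receptor subunit *Chrna4* (1.39) and the neurotensin receptor *Ntsr2* (1.49). *Slc1a2* was at 7.96, 7.66 and 7.59 in PDGFRA+ and 7.28, 6.42 and 5.39 in PDGFRA- cells, with no overlap. The lipid phosphatase gene *Plpp4* (1.43), *Lpo* (1.42), which encodes lactoperoxidase, *Tmem255a* (1.41), *Serinc2* (1.39), *Tmem179* (1.5) and the noncoding *Pantr1* (1.33) completed the set. The PDGFRA- library of T5 was the lowest of the 6 for each of these 12 genes. It was also the highest of the 6 in summed pan-leukocyte (3356 CPM), microglia (2268 CPM) and macrophage and monocyte genes (3481 CPM) and the lowest in *Egfr* (8.16), and their part was not tested.

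The 12 with the lowest log2 fold change ran from −2.20 to −1.82. They held the myelin genes *Mobp*, *Enpp6* and *Mag* and the leukocyte genes *Plac8*, *Flt3*, *Slfn4* (−2.15) and *Mefv* (−2.07), the last encoding pyrin. *Napsa* (−1.90), an aspartic protease, *Pex5l* (−1.90), a regulator of HCN channels, *Kndc1* (−1.85) and *Rassf10* (−1.93) were also among them. *Rassf10* was at 1.4, 1.13 and 1.53 in PDGFRA+ and 3.01, 2.94 and 3.92 in PDGFRA- cells. All but *Pex5l* had every PDGFRA+ library below every PDGFRA- library.

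**Figure D5:**
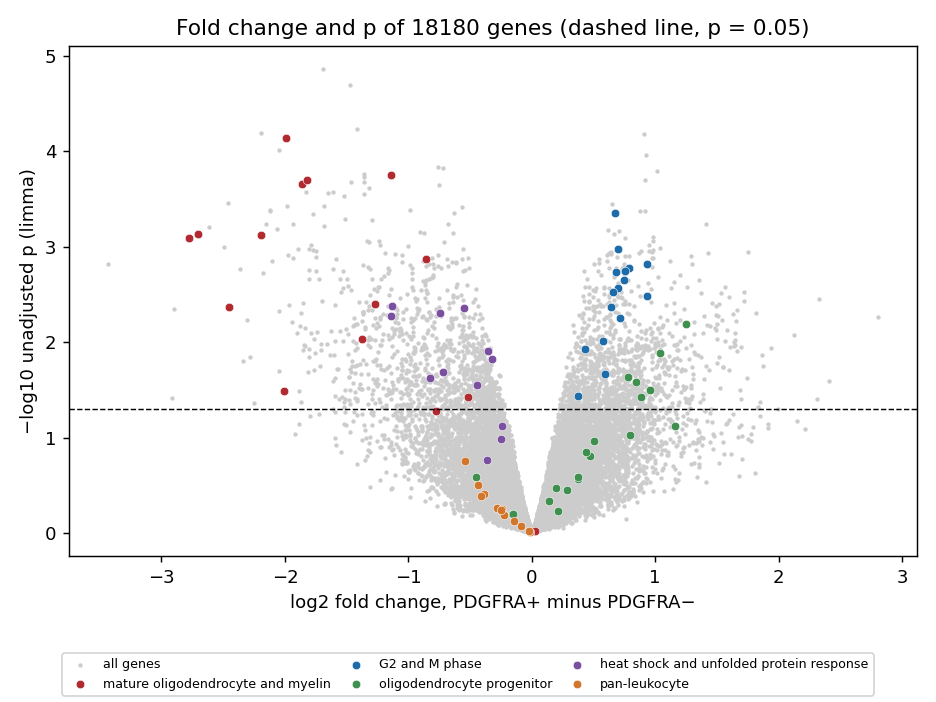
Log2 fold change PDGFRA+ minus PDGFRA- against −log10 of the unadjusted p from limma for 18180 genes, with 5 gene lists colored and a dashed line at the threshold of 0.05. Myelin genes reach −2.78 on the left, all 16 G2 and M phase genes lie above the line on the right, and all 12 pan-leukocyte genes lie below it.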

How the data were processed

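RNA from sorted EGFR+ PDGFRA+ and PDGFRA- cells of 3 tumors was sequenced. The authors trimmed reads with fastp, aligned them to mm39 with STAR and counted exons with featureCounts, with multi-mapping reads as fractions. They filtered genes by CPM, normalized with TMM and applied voom, and deposited log2 CPM for 18180 genes. No column was left without a sample.

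From these values, limma 3.58.1 (R 4.3.3) fitted the 4 populations, blocked by tumor, over the 12 libraries, with a mean-variance trend, a two-sided moderated test and Benjamini-Hochberg adjustment over all genes (6 residual and 3.49 prior degrees of freedom). To recover reads, each library's lowest value was taken as 0 reads plus the voom offset of 0.5. Between 41.3% and 59.2% of values were whole within 0.01, so no count test was used. A level of 3 reads was the floor, for counting error only. The tumor numbers of the labels pair the libraries: after subtraction of group means, PDGFRA+ and PDGFRA- libraries of one tumor correlated at 0.14 to 0.60.

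Named genes are the model's genes and the PDGF and EGFR families, the 12 highest and 12 lowest log2 fold changes (unadjusted p under 0.05, one direction in 3 tumors, mean log2 CPM of at least 2, predicted genes left out), up to 4 members with the smallest p of each of 35 lists, genes the study's text names, and the 5 smallest p-values. *Sox10*, *Olig2*, *Cspg4*, *Gpr17*, *Bcas1*, *Ugt8a*, *Myrf*, *Cnp*, *Mog*, *Ermn*, *Opalin*, *Ccnb1*, *Mcm4*, *Mcm7*, *Pcdh15*, *Grin1* and *Gja1*, list members outside this rule, were chosen after their values were seen. Of 486 listed genes 469 were in the table. The comparison, the lists and the tests were chosen with earlier results of these data known. Lists are described by counts and medians and were not tested. Some named genes are not reported here. The fit was checked on simulated data. Figures were drawn with matplotlib 3.10.9.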

Additional observations from a re-analysis of the deposited data

How the results depend on the processing

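Limits are the 3 pairs, the spread between tumors and 2 libraries that stood apart, PDGFRA- of T5 for leukocyte genes and PDGFRA- of T4 for *Erbb3*. Alternatives were a fit without the tumor block, with the 6 PDGFRA libraries, eBayes without a trend or robust, voom weights, a pseudocount of 1 CPM, a filter at a log2 CPM above 1 in at least 3 samples, median centring, quantile normalization, a fold change above 1.5, and leaving out each tumor or the PDGFRA- library of T5. Counts of list members without libraries were chosen after seeing the data. The count of genes at an adjusted p under 0.05 was 0 in all, with smallest adjusted p-values from 0.0854 (centring) to 0.947 (without T5). *Pdgfra* had log2 fold changes from 1.09 to 2.05, and an adjusted p of 0.977 without the block.

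The 2137 genes at an unadjusted p under 0.05 became 640 without the replicate block, 1357 with the fold change added, 1136 without the PDGFRA- library of T5 and 924 to 2783 without one tumor, and 40.4% of them were higher without T5 against 51.2%. Of the 101 genes followed through the alternatives, 10 changed direction in at least 1. Leaving out a tumor or that library gave ranges of −0.41 to 0.88 for *Areg*, −1.10 to 2.29 for *Btc*, −0.28 to 0.40 for *Cdkn2a*, −0.96 to 0.087 for *Egf*, −1.15 to 0.64 for *Erbb2*, −1.10 to 0.66 for *Erbb3* and −0.78 to 0.66 for *Hbegf*. They were −0.34 to 0.70 for *Pdgfb*, −0.33 to 0.20 for *Pdgfc* and −0.48 to 0.16 for *Pdgfrb*. List medians ranged likewise from −2.12 to −1.30 for myelin genes (−1.25 with a pseudocount of 1 CPM), −0.24 to 0.44 for PDGF genes, −0.15 to 0.35 for hedgehog and Notch genes, −0.35 to −0.18 for mitochondrial genes and −0.12 to −0.035 for MHC class I genes. The MHC class I median was 0.059 after quantile normalization and −0.10 after centring. Medians of other lists also crossed 0 when a tumor or that library was left out: −0.31 to 0.74 for EGFR family, −0.65 to 0.70 for microglia, −0.61 to 0.53 for complement, −0.95 to 0.25 for MHC class II, −0.28 to 0.58 for astrocyte, −0.02 to 0.47 for neural stem, −0.32 to 0.40 for neuron, −0.48 to 0.11 for TNF, IL-1 and NF-kB, −0.38 to 0.02 for ribosomal protein, −0.29 to 0.02 for immediate early and −1.0 to 0.21 for pan-leukocyte genes. The cause was not tested.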

Other observations

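Astrocyte and neural stem cell lists were not uniform. *Slc1a3* and *Aldoc*, astrocyte genes, had log2 fold changes of 0.81 each and were higher in PDGFRA+ cells of every tumor, and so were *Sox9* (1.11) and *Sox11* (0.83), transcription factors of neural progenitors. Higher in every tumor were 3 genes of each list, against 15.9% of all genes. Lower in the fit were 4 of 9 astrocyte genes, among them *S100b* (−0.35), and 3 of 10 stem and progenitor genes, among them *Hes1* (−0.43). The list medians were 0.15 over 9 astrocyte genes and 0.17 over 10 stem and progenitor genes, and T5 had the highest tumor medians, 1.01 and 0.96. Without the PDGFRA- library of T5 they were −0.17 and 0.06, and without T5 −0.28 and −0.02. *Gja1*, an astrocyte connexin, was at 7.84 in the PDGFRA- library of T4 and at most 5.23 in the other 5.

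Mesenchymal state genes had a median of −0.41 over 14 genes, with tumor medians of −0.51 (T3), −0.61 (T4) and 0.01 (T5). In T5, 7 were higher and 7 lower in PDGFRA+ cells. Lower in every tumor were 4, against 14.4% of all genes, and 2 were lower at an unadjusted p under 0.05, against 5.74%. *Cd44*, the hyaluronan receptor, was at 6.71, 7.09 and 7.45 in PDGFRA+ and 7.22, 7.95 and 7.99 in PDGFRA- cells of T3, T4 and T5, with a fitted difference of −0.63 (adjusted p = 0.21, limma). *Anxa2* (−0.65) had no overlap of the groups. *Lgals1*, which encodes the Galectin-1 used for the other sort, had a log2 fold change of −0.27 (unadjusted p = 0.26, limma).

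Fibroblast genes, which share *Pdgfra* with progenitors, had a median of 0.61 over 7 genes. Higher in every tumor were 5, against 15.9% of all genes, among them *Dcn* (1.24) and *Fbln1* (0.84), both matrix proteins. In T4, 2 of the 7 were lower in PDGFRA+ cells. In PDGFRA+ cells of T3, T4 and T5 the list summed to 656, 615 and 387 CPM. In PDGFRA- cells it summed to 382, 981 and 326 CPM, so T4 went the other way. In the PDGFRA- library of T5, 1 member was at 0 reads. Endothelial and mural cell lists had medians of 0.21 and −0.07 with 0 members at an unadjusted p under 0.05.

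Interferon-stimulated genes had a median of −0.28 over 14, with tumor medians of −0.45 (T3), 0.04 (T4) and −0.37 (T5). In T4, 8 were higher in PDGFRA+ cells. Lower in every tumor were 5, against 14.4% of all genes, among them *Mx1* (−0.94) and *Rsad2* (−0.79) with no overlap. At an unadjusted p under 0.05, 3 were lower, against 5.74% of all genes. Of 16 hypoxia and glycolysis genes only *Ndrg1* (−1.11), a hypoxia-responsive gene that is also high in myelinating cells, had an unadjusted p under 0.05. Among all genes 11.8% did. Of 16 immediate early genes *Egr3* (0.59) was higher and *Btg2* (−0.76) and *Nr4a1* (−0.30) were lower at that threshold. The shares of all genes were 6.02% and 5.74%. The lists of MHC class I (9 genes), TNF, IL-1 and NF-kB (15), hedgehog and Notch (14), mitochondrially encoded (13) and cytosolic ribosomal protein genes (79) had 0 members at an unadjusted p under 0.05, with medians of −0.09, −0.08, −0.07, −0.19 and −0.15. All 15 TNF, IL-1 and NF-kB genes were higher in PDGFRA+ cells of T4 (median 0.66) and lower in those of T5 (−0.64), and 14 were lower in T3 (−0.40). All 79 ribosomal protein genes were lower in PDGFRA+ cells of T3 and higher in those of T4, and 76 were lower in T5. Of 10 complement genes *Cfp* (−0.76) and of 8 neuron genes *Gad1* (0.83) had an unadjusted p under 0.05, against 11.8% of all genes. *Cfp* went against its list, in which 6 genes were higher in the fit and the median was 0.23.

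No group had enough libraries for a test of single outlying libraries, which needs 4.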
